A study of Mus musculus with 12 samples.

Results

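Histone H2B is one of the core histones that wrap DNA into nucleosomes, where it pairs with H2A. Mouse H2B is made from many near-identical replication-dependent genes, whose transcription rises in S phase and whose mRNAs typically end in a conserved stem-loop rather than a poly(A) tail. In the spleen, dividing lymphocytes and erythroid precursors are known sources of such mRNA. The mouse gene table used here (RefSeq, GRCm38.p6) listed 21 genes with an H2B symbol or synonym, of which 20 are protein coding. The deposited files do not pair probes with genes, so the H2B probes were found by translating each probe sequence in its 3 sense frames and searching for at least 12 residues identical, without gaps, to the human H2B type 1 protein. Of the 35852 mouse probes on the array 9 matched. The 8 described were then chosen by their Cy3 signal, which had to pass the scanner's test against background on 4 or more of the 12 arrays. The rule did not use the differences between genotypes, but H2B was picked for description with earlier results of these data in view.

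Spleens of C57BL6 mice were compared in 3 groups of 4 arrays: Trex1 V235fs KI, in which a human TREX1 gene with the V235fs frameshift was knocked in, Trex1 D272fs KI, with the D272fs frameshift, and control mice. TREX1 is a DNA exonuclease. V235fs is the commonest mutation of the hereditary vascular disease RVCL, and D272fs was found in a patient with lupus (SLE). The labels describe the expression of both alleles as conditional and name no promoter, Cre driver, age or sex, and for the controls they give no allele. On each array the spleen cDNA carried Cy3 and a universal reference RNA carried Cy5. Each level below is therefore a log2 ratio of spleen over reference for that probe, and levels of different probes are not compared. The labels do not state whether each sample is its own animal. The p-values therefore cover only the variation among the 4 samples of each group, and that may be technical.

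The 8 probes are shown so that their overlap can be seen. Those that do not overlap were read on the same arrays, so they are not independent measurements of H2B either. Each is 60 bases long, with a GC content between 53.3% and 61.7%, and was printed as 1 spot per array. They are written 5′ to 3′ in coding sense as deposited, and capitals mark bases that differ from another of the 8 probes at the same coding position. Residues are numbered from 1 at the initiator methionine of the human protein, which has 126 residues.
M400005636: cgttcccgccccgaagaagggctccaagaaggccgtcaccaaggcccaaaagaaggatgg
M400008866: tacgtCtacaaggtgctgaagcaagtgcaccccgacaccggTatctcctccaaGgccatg
M400008872: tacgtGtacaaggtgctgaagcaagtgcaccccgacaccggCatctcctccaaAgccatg
M400008873: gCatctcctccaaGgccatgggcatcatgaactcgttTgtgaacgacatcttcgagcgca
M400012461: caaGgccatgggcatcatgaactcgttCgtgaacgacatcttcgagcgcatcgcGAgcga
M400008860: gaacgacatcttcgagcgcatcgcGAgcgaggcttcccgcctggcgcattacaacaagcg
M400008861: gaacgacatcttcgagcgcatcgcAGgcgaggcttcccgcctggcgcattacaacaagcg
M400007964: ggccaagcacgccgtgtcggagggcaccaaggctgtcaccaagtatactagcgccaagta

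M400005636 lies in the N-terminal tail, the flexible part that protrudes from the nucleosome (residues 8 to 26). M400008866 and M400008872 both cover residues 41 to 60, in the histone fold through which H2B pairs with H2A. They share all 60 coding positions and differ at 3 bases. M400008873 covers residues 55 to 73 and M400012461 residues 58 to 76, with 50 positions in common and 1 difference. M400008860 and M400008861 both cover residues 68 to 86 and differ at 2 bases. The first of these is silent and the second changes a residue: M400008860 and M400012461 carry G76S (the query has G at residue 76 and the translation has S), while M400008861 keeps the query's residue. M400007964 covers the C-terminal end of the protein (residues 108 to 126). The only other departure from the query was A8V in M400005636.

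The 8 probes matched 18 to 20 residues of the query, and the best match among probes that did not reach 12 was 10 residues. The ninth probe that matched, M300021466, had 12 identical residues of 19 and was well above background on 1 array, so it was left out. Of the 28 pairs among the 8 probes 11 overlap in coding position, and near-identical transcripts can bind the same probe. The probes are therefore not independent replicates, no level can be assigned to a single H2B gene, and genotypes were compared over arrays. All 8 were well above background in both channels on 12 of 12 arrays, and no spot was saturated. The N-terminal probe was the dimmest, with a mean Cy3 intensity between 156.2 and 721.3 over the arrays, against 575.5 to 7932 for the other 7 and a local background of 19.5 to 37. On D272fs replicate 3, and less so on V235fs replicate 4, the background model fitted poorly: it put the remaining background at -391.7 and -21.55 intensity units, where the negative control spots averaged 21.92 and 20.43.

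All 8 H2B probes were lower in V235fs spleen than in control spleen. The fall ran from 0.48 on the log2 scale (1.40-fold lower, M400007964) to 0.89 (1.85-fold lower, M400005636), with a median change of -0.70, against a median of 0.0018 over all 26502 probes tested. All 8 passed the limma test (adjusted p 0.0204 to 0.0461), where 0.355% of all probes were called lower. At all 8 the highest V235fs array lay below the lowest control array, which was so for 7.1% of all probes. Since the tissue was profiled whole, fewer H2B-expressing cells and less H2B RNA per cell cannot be told apart.

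In the N-terminal tail, M400005636 read -0.70, -1.16, -1.28 and -1.19 in V235fs replicates 1 to 4, against -0.11, -0.24, -0.21 and -0.20 in the controls. The highest V235fs array lay clearly below all controls, and replicate 1 stood above the other V235fs arrays. The change was -0.89 ± 0.13 (SE, n = 4 arrays a group; limma adjusted p = 0.0204).

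In the histone fold, the near-identical pair covering residues 41 to 60 gave near-identical changes. M400008866 read -0.16, -0.35, -0.45 and -0.47 in V235fs and 0.51, 0.24, 0.26 and 0.42 in control arrays. M400008872 read -0.15, -0.39, -0.52 and -0.47 in V235fs and 0.35, 0.19, 0.37 and 0.39 in control arrays. At both probes every V235fs value was below 0 and every control value above it. The changes were -0.72 ± 0.12 for M400008866 and -0.71 ± 0.11 for M400008872 (SE, n = 4 a group; limma adjusted p = 0.0269 and 0.0245).

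The pair that differs at residue 76 also fell at both versions. M400008860, with G76S, read -0.19, -0.48, -0.62 and -0.55 in V235fs and 0.36, 0.23, 0.22 and 0.55 in control arrays, a change of -0.80 ± 0.13. M400008861, without it, read -0.11, -0.38, -0.59 and -0.51 in V235fs and 0.36, 0.22, 0.17 and 0.34 in control arrays, a change of -0.67 ± 0.12 (SE, n = 4 a group; limma adjusted p = 0.0258 and 0.0359). The difference between the versions was not tested. M400012461, which also carries G76S, changed by -0.65 ± 0.12, and M400008873, just upstream, by -0.69 ± 0.12 (limma adjusted p = 0.0383 and 0.0352).

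At the C-terminal end, M400007964 showed the smallest fall of the 8. It read -0.30, -0.50, -0.72 and -0.53 in V235fs and -0.03, -0.02, -0.06 and -0.02 in control arrays, so the controls lay close to the reference RNA. The change was -0.48 ± 0.10 (SE, n = 4 a group; limma adjusted p = 0.0461).

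The V235fs call depends on single arrays and on how the arrays were blocked, although all 8 changes were negative in each of the alternatives run. Called probes went from 8 to 0 without V235fs replicate 2, 3 or 4 or without control replicate 2. Calls over all 26502 probes, 225 in the reported fit, went to 22, 17 and 17 without V235fs replicates 2, 3 and 4. H2B calls went to 3 without control replicate 1 or control replicate 4. They went to 5 without control replicate 3 or without the 2 arrays of poor background fit. Without D272fs replicate 1, which enters only the shared spread, 4 of the 8 and 100 of all probes were called. All 8 stayed called with the background of the negative control spots (limma adjusted p 0.0033 to 0.0131) and without D272fs replicate 3 (0.0063 to 0.0186). In these fits 2184 and 1393 of all probes were called. Median centring in place of loess left 0 of the 8 and 6 of all probes called, with a median H2B change of -0.99 against -0.15 for all probes. Each knock-in group occupied 1 slide and both were scanned on 1 day, while the controls were on 3 other slides and 2 other days, so slide, scan day and genotype cannot be told apart. With slide as a random block 2 of the 8 were called, and with scan day 0. Over all probes 50 were called with slide and 26 with scan day.

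Position on the slide held more than 1 genotype, and as a fixed block it left 0 of the 8 called (limma adjusted p 0.273 to 0.325), with a median change of -0.62. In that fit 7 of all probes were called. Averaged over the 8 probes, the array at position 4 read -0.22 for V235fs replicate 1, -0.07 for D272fs replicate 1, and 0.29, 0.15 and 0.26 for control replicates 1, 2 and 4. At position 1 the averages were -0.57 for V235fs replicate 4, 0.21 for D272fs replicate 4 and 0.16 for control replicate 3. V235fs was thus below control at both positions, but 3 of the 4 controls shared position 4 with the V235fs array of the highest H2B level. The part of position in the result was not tested beyond these values.

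In D272fs spleen no H2B probe was called against control, where 0.0415% of all probes were called lower. The changes ran from -0.33 (M400008866) to -0.05 (M400007964), with a median of -0.20 against -0.02 for all probes. The adjusted p lay between 0.202 and 0.819 (limma). Before adjustment, M400008866 alone of the 8 passed 0.05, as did 4428 of all 26502 probes. The 95% intervals of the 8 changes lay between -0.59 and 0.20. The size of the change depended on the setting. With median centring the H2B median was -0.72 against -0.25 for all probes. In that fit all 8 had an unadjusted p under 0.05 and 0 were called. The share of all probes under 0.05 was not counted there. With scale normalisation the H2B median was -0.35. Without D272fs replicate 3 it was -0.12, and with slide position as a block -0.11, and in both the changes at M400007964 and M400012461 turned positive.

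The largest of these changes was at M400008866, which read -0.06, 0.21, -0.25 and 0.20 in D272fs replicates 1 to 4. All 4 lay below the lowest control value of 0.24, and it was the only one of the 8 without overlap, where 4.89% of all probes had none. Its near-identical partner M400008872 read 0.04, 0.29, -0.13 and 0.25 and overlapped the controls. At M400012461 (0.13, 0.35, 0.00 and 0.44) and M400007964 (-0.12, 0.05, -0.28 and 0.03) the D272fs values spread to both sides of the controls. M400005636 read -0.64, -0.65, -0.24 and -0.34, a change of -0.28 ± 0.13 (SE, n = 4 a group; limma adjusted p = 0.316). Its replicate 3 rested on a poor background estimate, and with the background taken from the negative control spots all 4 D272fs arrays lay below the controls. It was not called in that setting either (limma adjusted p = 0.171). There 2 of the 8 probes had no overlap, and the share of all probes was not counted.

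Set against each other, the knock-in groups differed by -0.61 (M400005636) to -0.38 (M400008866) at the 8 probes, V235fs minus D272fs, with a median of -0.50 against 0.02 for all probes. No H2B probe passed the limma test (adjusted p 0.195 to 0.269), and 0.00377% of all probes were called lower. All 8 had an unadjusted limma p under 0.05 (0.000414 to 0.00684), as had 3143 of all 26502 probes. The 95% intervals of the 8 lay between -0.90 and -0.13. V235fs lay below D272fs without overlap at 5 of the 8 probes, which was so for 2.3% of all probes. With the background taken from the negative control spots this held at all 8, and the share of all probes was not counted there. This comparison moved with the setting in both directions. Without D272fs replicate 3, 6 of the 8 were called, but calls over all probes also went from 1 to 371 of 26502. With array weights, which give deviant arrays less influence, all 8 were called, and 1670 of all probes. Median centring brought the H2B median to -0.26 (limma adjusted p 0.754 to 0.877) and scale normalisation between arrays to -0.33. Each left 1 of the 8 with an unadjusted p under 0.05, and the share of all probes was not counted there.

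By group mean the order was V235fs, D272fs and control at each of the 8 probes, although D272fs and control changed places at M400007964 and M400012461 without D272fs replicate 3 (changes of 0.0156 and 0.0163) and with position as a block (0.0238 and 0.0243), and at M400007964 without background subtraction (5e-04). The mean of the 8 was -0.49 ± 0.19 in V235fs, 0.02 ± 0.17 in D272fs and 0.21 ± 0.07 in control spleen (SD, n = 4 arrays). By array it was -0.22, -0.50, -0.65 and -0.57 in V235fs, -0.07, 0.12, -0.16 and 0.21 in D272fs, and 0.29, 0.15, 0.16 and 0.26 in control. The V235fs arrays were all below the other groups, while D272fs replicate 4 lay within the controls' range and the other D272fs arrays below it. D272fs replicate 3 read 0.02 with the background of the negative control spots. Neither pair of neighbours in this order, V235fs and D272fs or D272fs and control, differed past the test at any of the 8 probes.

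The ratio combines the spleen channel with the reference channel, and both were examined alone. In Cy3, the spleen channel, 7 of the 8 probes were called lower in V235fs than in control, where 6.52% of all probes were. These changes had a median of -0.58 over the 8 probes and ran from -0.79 (M400008860) to -0.30 (M400007964), and M400008866 was not called (-0.41, limma adjusted p = 0.116). In Cy3 the V235fs arrays lay below the controls without overlap at 5 of the 8 probes, against all 8 in the ratio. The share of all probes without overlap was not counted in Cy3. In Cy5, the reference RNA common to all arrays, 4 of the 8 probes also differed, where 30.1% of all probes did. M400005636 (0.16), M400007964 (0.19) and M400008873 (0.14) were higher on the V235fs arrays and M400008861 (-0.13) was lower. The largest Cy5 changes, at M400008872 (0.27) and M400008866 (0.24), were not called. Over the 8 probes the Cy5 change had a median of 0.15, with 5 positive and 3 negative. At M400008861 and M400008860 the Cy3 change (-0.71 and -0.79) was near that of the ratio (-0.67 and -0.80). The gap was widest at the pair covering residues 41 to 60, where Cy3 changed by -0.37 against -0.71 in the ratio at M400008872 and by -0.41 against -0.72 at M400008866. It was -0.63 against -0.89 at M400005636 and -0.30 against -0.48 at M400007964. Between the knock-in groups, V235fs minus D272fs, the median Cy3 change of the 8 probes was -0.30 and the median Cy5 change 0.19, positive at all 8, against a median of -0.50 in the ratio. Each channel was normalised on its own and the ratio by loess, so these medians do not split the ratio into parts. How much of the difference lay in the reference channel was not tested. The share of all probes with a positive Cy5 change was not counted for this comparison.

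The 8 probes moved together from array to array. Pearson's r between pairs ran from 0.84 to 0.99 over the 12 arrays, a description in which the points share the genotype and the array. After each group's mean was removed, the 21 pairs without the N-terminal probe kept r of 0.74 to 0.97. The 7 pairs with it had r of 0.22 to 0.46, but of 0.68 to 0.85 with the background of the negative control spots, so this gap depended on the background setting.

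Probes for the other core histones, found by the same rule, are given side by side with no test between families. H2A, the dimer partner of H2B, had 11 probes, with a median change of -0.63 in V235fs and 0.31 in D272fs against control and 0 called in either. Of these 11, 10 were lower in V235fs and 1 in D272fs. H3 and H4, which form the central tetramer of the nucleosome, had 15 and 10 probes. The H3 median was -0.54 in V235fs (2 called lower) and -0.28 in D272fs (0 called), with 10 of the 15 lower in each. The H4 median was -1.05 in V235fs (6 called lower) and -0.81 in D272fs (4 called lower), with all 10 lower in each. Over all probes 0.355% were called lower in V235fs and 0.0415% in D272fs, with median changes of 0.0018 and -0.02. In D272fs the medians of H2A and H2B had opposite signs, with 0 probes called in either family, and those of H2B, H3 and H4 the same sign. Averaged over its 11 probes, H2A read 0.61, 0.07, 0.17 and -0.07 in D272fs replicates 1 to 4. Control replicates 1 to 4 read -0.55, 0.13, 0.16 and -0.22, so the 2 groups overlapped.

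Of 26440 other probes, the one most like the mean of the H2B probes over the 12 arrays was M400011512, with Pearson's r of 0.96 (0.85 after group means were removed), followed by M400006097, with 0.95 (0.72). M400011512 changed by -0.62 in V235fs against control (limma adjusted p = 0.0505) and M400006097 by -0.46 (adjusted p = 0.0351). The next 3 had r of 0.93 to 0.94, and 1 of them, M400006060, translates to 11 residues identical to H3. The files give no gene for any of these probes.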

How the data were processed

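Spleen cDNA (Cy3) and reference cDNA (Cy5) were read on 12 arrays. The deposited scanner files hold, per the file headers (Agilent Feature Extraction 11.5.1.1), mean signal and median background intensity per spot, flags, and a log10 ratio; the table the authors deposited repeats those log10 ratios to within 0.005. No dye swap was made. Here log2 ratios of spleen over reference were computed from the deposited intensities with limma 3.58.1 in R 4.3.3 (normexp, offset 50; loess, control spots at weight 0). Of 37558 spots 1417 control and 184 other spots were left out, and 69 outlier spots were set to missing. Probes well above background in Cy3 on at least 4 arrays with 2 values a group were tested (26502), with 1 mean per group over all 12 arrays, lmFit and eBayes (9 residual and 2.62 prior degrees of freedom), and called at a Benjamini-Hochberg adjusted p under 0.05. The number of arrays limits the precision. The pipeline was tested on simulated data.

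All 8 H2B probes are described. The query proteins were entered by hand, since no protein table was given, and are judged by their match to the probes. The probes most like H2B were the 5 with the highest Pearson's r, of which 2 are named in full. Members and lists were chosen with earlier results of these data known. Planned gene lists, marker genes of cell types and the Trex1 level need gene names and were not run, so the tissue label and the genotypes were not checked against marker genes and changes in cell makeup were not tested. Same-numbered arrays did not deviate together: of 12 correlations, from -0.51 to 0.35, 3 were over 0.1. Alternatives were other background, normalisation, filters, blocks, array weights, the Cy3 channel alone and leaving out each array. The Cy5 channel was fitted apart from these alternatives.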

Additional observations from a re-analysis of the deposited data

Results flagged for a closer look

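Among 24 sets of 4 arrays (8 probes in 3 groups) examined for a lone array, 1 was marked, about what chance gives at 1 in 20. At M400007964 control replicate 3 read -0.0561, while the other controls lay between -0.0269 and -0.0228. The control spread at this probe was small (SD 0.02), and the gap is far below the V235fs change of -0.48.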

How the results depend on the processing

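All 8 changes in V235fs against control were negative under the 29 alternatives run. Called probes there went from 8 to 0 with median centring, scale normalisation, scan day as a random block or position as a fixed block. The replicate block also left 0 (limma adjusted p 0.0746 to 0.0963, median change -0.70). Calls over all 26502 probes, 225 in the reported fit, went to 6, 14, 26, 7 and 15 in these settings, in that order. H2B calls went to 2 with slide as a random block, where 50 of all probes were called. They went to 5 without the 2 arrays of poor background fit, a setting chosen after seeing the data. All 8 stayed called with negative control background and without D272fs replicate 3, where 2184 and 1393 of all probes were called. Leaving out each array in turn gave 0 to 8. The cause was not tested. Median centring moved the median of all probes to -0.15 in V235fs and -0.25 in D272fs, and relative to that the H2B medians were -0.85 and -0.48. D272fs against control stayed at 0 called throughout, and the sign of 2 probes turned. M400007964 read 5e-04 without background subtraction, 0.0238 with position as a block, and 0.0156 without D272fs replicate 3 or without both poorly fitted arrays. M400012461 read 0.0243 with position as a block and 0.0163 in both latter settings. Over the fits that leave out 1 array these changes ranged from -0.0943 to 0.0156 for M400007964 and from -0.1302 to 0.0163 for M400012461. V235fs against D272fs went from 0 to 1 called without background subtraction, 1 with negative control background, 3 in Cy3 alone, 8 with array weights, and 8 with negative control background without V235fs replicate 1 (chosen after seeing the data). Calls over all 26502 probes, 1 in the reported fit, went to 29, 23, 2937, 1670 and 362 in these settings. Leaving out each array gave 0 to 6. All 8 probes were well above background on all 12 arrays, so signal did not limit their detection.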
